A study of Mus musculus with 8 samples.

Results

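Immunoglobulins act on cells through Fc receptors, membrane proteins that bind the constant region of an antibody. The 10 genes described here encode the mouse receptors for IgE and IgG and their closest relatives: Fcer2a, Fcer1a, Fcer1g, Fcgr1, Fcgr2b, Fcgr3, Fcgr4, Fcrla, Fcrl1 and Fcrl5. They were chosen by gene name, and every non-control probe of the array that carries one of these names was taken, which gave 11 probes of 55681, or 10 of the array's 34797 gene names. Fcrl5 has 2 probes, written for transcript variants 1 and 2, and each of the others has 1. RNA was measured on 8 Agilent 1-colour (Cy3) expression arrays of the mouse B lymphoma line A20, an IgG-bearing mature B cell line that serves as a model of B cell receptor signalling. Untransfected A20 cells and stable A20 transfectants that carry membrane IgM, called the control lines below, were set against stable A20 transfectants that carry membrane IgE, clone 18 and clone 41, with 2 arrays a line. All 4 lines were grown in RPMI1640 with 10% fetal bovine serum and 50 µM beta-mercaptoethanol, and 1 µg of total RNA was used per array. Each IgE line is 1 clone, the vector and the antigen specificity of the transfected receptors are not given in the sources used here, and whether a line's 2 arrays stem from separate cultures is not stated in the labels. The p-values below therefore measure the spread between these arrays, which may be technical.

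CD23, the product of Fcer2a, is the low-affinity IgE receptor, a C-type lectin of mature B cells. The other receptors belong to the immunoglobulin superfamily. FcεRI, the high-affinity IgE receptor of mast cells and basophils, needs the alpha chain (Fcer1a) to bind IgE and the common gamma chain (Fcer1g) to signal. The gamma chain carries an ITAM, the tyrosine motif that recruits the kinase Syk, and also serves the activating IgG receptors FcγRI (Fcgr1), FcγRIII (Fcgr3) and FcγRIV (Fcgr4), which are chiefly myeloid and NK cell receptors. FcγRIIB (Fcgr2b) carries an inhibitory ITIM instead, recruits the phosphatase SHIP and is the classical Fcγ receptor of B cells, where it dampens signalling of the B cell receptor. Fcrl1 and Fcrl5 encode Fc receptor-like surface proteins of B cells, and Fcrla encodes an intracellular relative made by B cells.

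The probes are 60-base DNA oligonucleotides. The first 30 bases of the probes on which the results turn, 5′ to 3′ as deposited and in lower case throughout, show what each value was measured with, and show that the pair of Fcrl5 probes read different stretches of that gene.
Fcer2a: atctgggatgagtcctcccatcaagtttgc
Fcgr2b: acttctgtgagtcctgaaaccaacagacac
Fcgr3: ctacaaaagtaatttctctatcccaaaagc
Fcgr4: ccaagaagcgattcttcagaattttacact
Fcrl5 variant 1 probe: tgggcctcccccctaccccctttataagcg
Fcrl5 variant 2 probe: tttcctcacagcaacagaaaaatgtctgat
On the mm9 build the Fcer2a probe lies at chr8:3682343-3682402 on the minus strand. A group of 5 members lies close together on chromosome 1. These are Fcrla (chr1:172848103-172848162, minus), Fcgr2b (chr1:172890988-172891047, minus), Fcgr4 (chr1:172959738-172959797, plus), Fcgr3 (chr1:172984129-172984188, minus) and Fcer1g (chr1:173159794-173159853, minus). The Fcer1a probe is further along the same chromosome (chr1:175151438-175151497, minus). Chromosome 3 carries Fcrl1 (chr3:87195973-87196032, plus), Fcrl5 (chr3:87271386-87271445 for variant 1 and chr3:87304541-87304600 for variant 2, both plus) and Fcgr1 (chr3:96086839-96086898, minus). Their exon and untranslated region annotation on mm9 was not analysed here. The mouse FcγRIIB and FcγRIII proteins are nearly identical outside the cell. The member probes shared at most 8 bases in a row with each other, and at most 15 with any probe of another name. How far the Fcgr3 probe also binds the Fcgr2b transcript was not tested.

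Levels are given as log2 of the processed intensity over the array's own 75th percentile, so that 0 is the intensity below which 75% of the array's non-control probes lie. They compare lines for 1 probe and not probes with each other. The 75th percentile was 584 to 664 intensity units on the control arrays and 474 to 524 on the IgE arrays, and 49.7% to 58.9% of spots were well above background. The pair of untransfected arrays differed more (SD of the log2 difference over probes 0.65) than the pairs of the other lines (0.33 to 0.37). All arrays shared 1 slide and 1 scan, with each line in its own slide column, so that line and column cannot be told apart. The probe for the mu constant region, looked at for the IgM label, read 4.88 and 4.64 in the IgM line and 3.65 to 4.29 in the other lines. It was well above background in all 4 lines, and the difference was not tested. The IgE label was not checked here. All 12 B cell markers were well above background in each of the 4 lines, with a summed level of 410 to 517 (linear, in units of the 75th percentile), and Ebf1 among them was lower in the IgE lines. Mast cell and basophil markers were nearly absent, with 1 of 13 well above background (Tpsb2), Kit and Cma1 not above it on any array, and a summed level of 0.257 to 0.758. Of 14 macrophage and dendritic cell markers 5 or 6 were well above background in each line, with summed levels of 53.1 to 60.4 in the control lines and 53.6 to 74.3 in the IgE lines. That sum chiefly follows its brightest gene, Itgam, at log2 5.13 to 5.75 on control arrays and 5.25 to 5.81 on IgE arrays. Lyz2, Cd14 and Mrc1 were not well above background on any array. NK cell markers summed to 3.18 to 4.48 in the control lines and 4.1 to 5.24 in the IgE lines, and T cell markers to 10.8 to 16.3 and 16.7 to 20.6, with 2 or 3 of 10 and 5 or 6 of 10 well above background. The called markers among them were lower in the IgE lines, where they were not well above background. Klrb1c was at least 8.19-fold lower (adjusted p = 6.58e-05), and Cd3g, above background on 2 of the 4 control arrays, at least 2.65-fold lower (adjusted p = 0.000877), in each clone against the IgM line and not against untransfected cells (adjusted p = 0.134 and 0.179).

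Against this background the A20 lines carried 8 of the 10 Fc receptor genes. To enter the test a probe had to be well above background in a whole line, that is on its 2 arrays, and the 9 probes of these genes were. Fcer1a, the IgE-binding chain of the mast cell receptor, was not well above background on any array, with intensities of 3.97 to 5.63. Fcgr1, the high-affinity IgG receptor gene, was above background on 1 array only, the first IgM array at an intensity of 31.6, and read 6.5 to 11.4 on the other 7. Neither was tested. Fcgr4 entered the test only through the IgE lines, and the variant 2 probe of Fcrl5 only through the control lines, so a difference in these 2 probes was a condition of their being tested.

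In the comparison of the 4 IgE arrays with the 4 control arrays, the genes for the IgG receptors Fcgr4, Fcgr3 and Fcgr2b were higher in the IgE lines, and the IgE receptor gene Fcer2a and the variant 2 probe of Fcrl5 were lower. Calls came from limma's moderated test over all 29140 kept probes and needed a Benjamini-Hochberg adjusted p under 0.05 together with a 2-fold or larger difference. By that rule 3 of the 9 tested member probes were higher and 2 lower, where 8.99% of all tested probes were called, 3.6% as higher and 5.39% as lower. The median difference of the 9 was 0.52 on the log2 scale, against 0.05 over all probes. The IgE arrays did not overlap the control arrays in 5 probes, those of Fcgr2b, Fcgr3, Fcgr4, Fcer1g and Fcrl5 variant 2, where 24% of all tested probes did not overlap. The calls and the non-overlap both include Fcgr4 and the Fcrl5 variant 2 probe, for which a difference was a condition of being tested. With no scaling between arrays the median over all probes moved to -0.28, and 563 probes were called higher and 2672 lower, against 1050 and 1570 with scaling. In these bulk RNA samples, fewer cells that express a gene and less RNA per cell cannot be told apart.

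**Figure D1:**
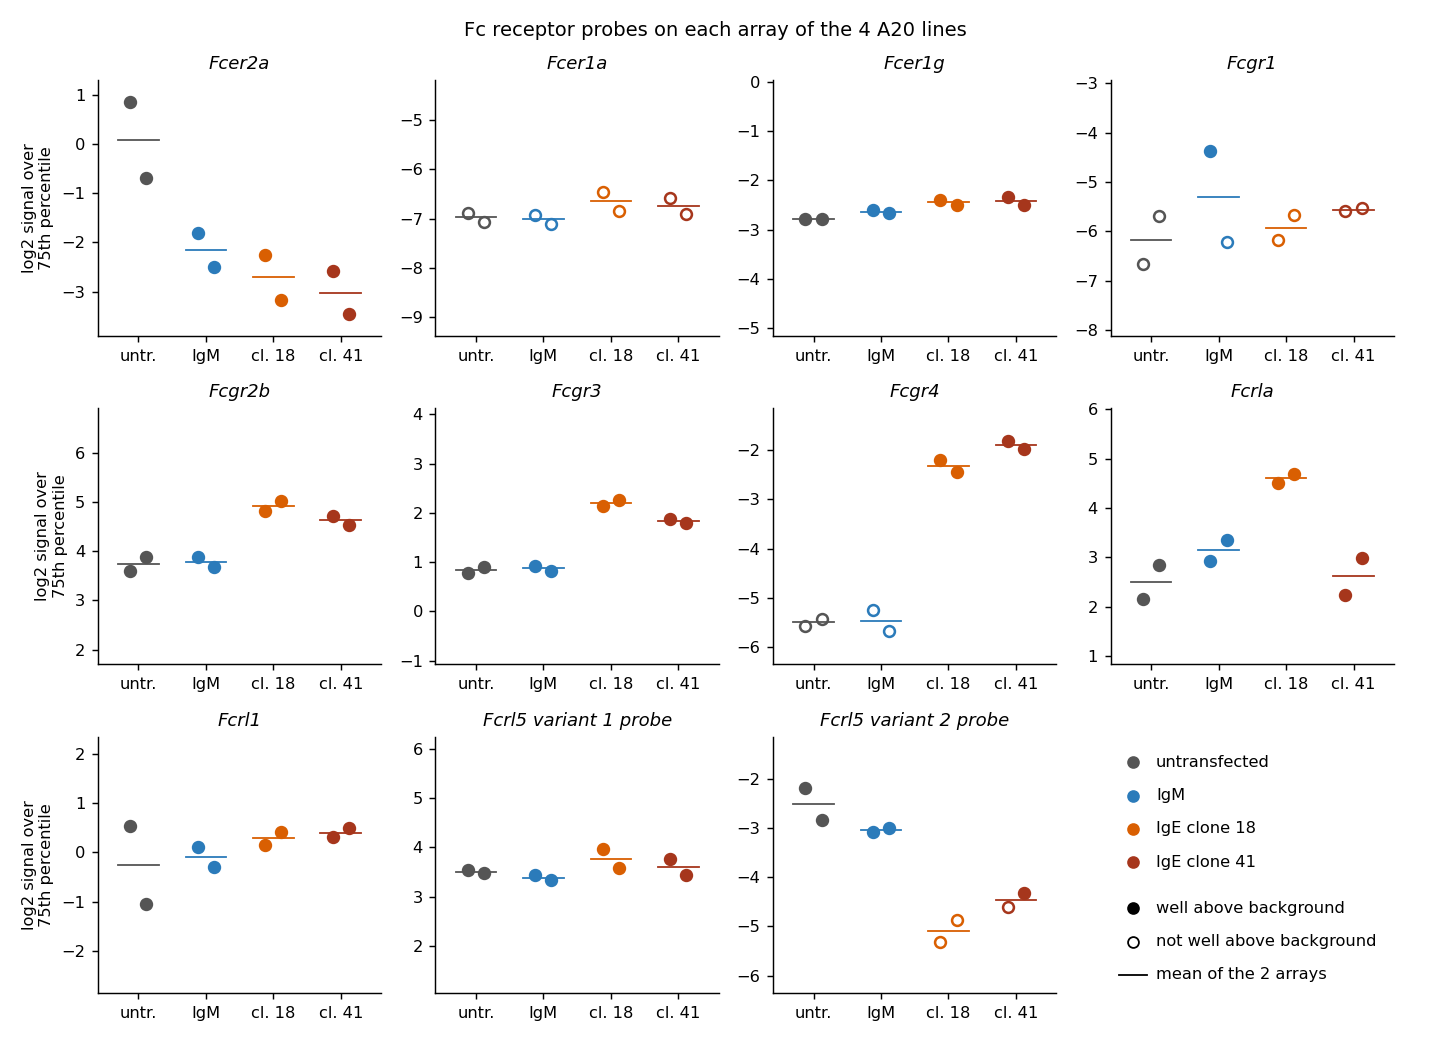
Level of each of the 11 Fc receptor probes on each array (y axis, log2 processed intensity over the array's 75th percentile; x axis, the 4 lines), with every panel spanning its own stretch of the scale; filled points are well above background, open points are not, and the line is the mean of the 2 arrays. Fcgr4 is open on the 4 control arrays and filled on the 4 IgE arrays, from -2.44 to -1.82, and Fcer2a is highest on the untransfected arrays.

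Fcer2a, the gene for CD23, was highest in untransfected cells and low in all 3 transfected lines. Its levels were 0.85 and -0.7 in untransfected cells, -1.82 and -2.51 in the IgM line, -2.26 and -3.16 in clone 18, and -2.59 and -3.45 in clone 41. The intensities behind these levels were 1190 and 362 in untransfected cells and 43.5 to 186 on the 6 transfectant arrays. The untransfected arrays thus stood above all others but far apart from each other, and in each line the first array read higher than the second. Fcer2a fell 3.53-fold in the IgE lines against the control lines (log2 difference -1.82 ± 0.42, SE, limma adjusted p = 0.0296). Set against untransfected cells, clone 18 had 6.85-fold less (-2.78 ± 0.59, adjusted p = 0.0351) and clone 41 8.52-fold less (-3.09 ± 0.59, adjusted p = 0.0299).

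Against the IgM line neither clone passed: Fcer2a differed by -0.54 in clone 18 (95% interval -1.95 to 0.87, adjusted p = 0.616) and by -0.86 in clone 41 (-2.27 to 0.55, adjusted p = 0.446). The IgM line itself stood 4.7-fold below untransfected cells, a difference that did not pass (-2.23 ± 0.59, adjusted p = 0.15). In order, untransfected cells were highest, and IgM cells, clone 18 and clone 41 followed as neighbours that did not differ beyond their spread. The pooled call was lost without the first IgM array (-1.65, adjusted p = 0.0907), without the first or second clone 18 array (-2.04 and -1.59, adjusted p = 0.0597 and 0.103) and without the first or second clone 41 array (-2.03 and -1.6, adjusted p = 0.0521 and 0.0911). The clone 18 call against untransfected cells was lost when any array other than the second untransfected one was left out (-3.23 to -2, adjusted p from 0.0513 to 0.18). The clone 41 call was lost without any of the 4 IgE arrays (-3.52 to -2.67, adjusted p from 0.0593 to 0.15).

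Fcer1g, the signalling chain that FcεRI and the activating IgG receptors share, was well above background on all arrays at a nearly constant level. It read -2.78 on both untransfected arrays, -2.6 and -2.67 in the IgM line, -2.4 and -2.5 in clone 18, and -2.34 and -2.5 in clone 41. The IgE arrays lay above the control arrays without overlap, by 0.28 ± 0.11 on the log2 scale, which did not pass (adjusted p = 0.142) and was -0.06 with no scaling between arrays.

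Fcgr2b, the gene for the inhibitory receptor FcγRIIB, was higher in both IgE clones. Its levels were 3.59 and 3.88 in untransfected cells, 3.88 and 3.67 in the IgM line, 4.81 and 5.01 in clone 18, and 4.72 and 4.53 in clone 41. The 2 control lines overlapped, and every IgE array lay above every control array. The array carries this probe on 10 spots, whose SD within an array was 0.04 to 0.11. After scaling, the lowest of its spots on an IgE array (4.41) exceeded the highest on a control array (4.16). In unscaled intensity the spots overlapped: the lowest IgE spot was 10100 (second clone 41 array), the highest control spot 10800 (first IgM array). These spot values include spots marked as outliers. Fcgr2b rose 2.01-fold in the pooled comparison (1.01 ± 0.14, adjusted p = 0.0042).

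In clone 18 Fcgr2b rose 2.25-fold against untransfected cells (1.17 ± 0.19, adjusted p = 0.0152) and 2.19-fold against the IgM line (1.13 ± 0.19, adjusted p = 0.0146). Clone 41 was 1.85-fold and 1.8-fold above the same lines, short of the 2-fold limit (adjusted p = 0.0475 and 0.0457). The pooled change lay so close to 2-fold that it fell below it without the first untransfected array (0.94), the second IgM array (0.96), the second clone 18 array (0.96) or the first clone 41 array (0.96), and also with no scaling between arrays (0.68), with adjusted p of 0.00672 to 0.0248 in these fits. The clone 18 calls were lost without its first array (1.27 against untransfected and 1.23 against IgM cells, adjusted p = 0.0773 and 0.0711) or its second (1.07 and 1.03, adjusted p = 0.102 for both), and against IgM cells also without either IgM array (1.24 and 1.03, adjusted p = 0.0595 and 0.0855). Without the second untransfected array clone 41 passed against untransfected cells (1.03, adjusted p = 0.045).

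Fcgr3, which encodes the activating low-affinity IgG receptor FcγRIII, moved in the same lines. It read 0.78 and 0.9 in untransfected cells, 0.92 and 0.83 in the IgM line, 2.15 and 2.27 in clone 18, and 1.88 and 1.8 in clone 41. The 4 control arrays lay within 0.15 of each other and all IgE arrays stood clear of them. Fcgr3 rose 2.25-fold in the pooled comparison (1.17 ± 0.11, adjusted p = 0.00108).

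Clone 18 was 2.59-fold above untransfected cells (1.37 ± 0.16, adjusted p = 0.00401) and 2.52-fold above the IgM line (1.34 ± 0.16, adjusted p = 0.00375). Clone 41 was short of 2-fold against untransfected cells before rounding (1 ± 0.16, adjusted p = 0.017) and against the IgM line (0.96 ± 0.16, adjusted p = 0.0155). It passed against untransfected cells without the second untransfected array (1.06, adjusted p = 0.0262). Clone 41 less clone 18 came to -0.38 ± 0.16, which did not pass (adjusted p = 0.905). With no scaling between arrays the pooled Fcgr3 difference was 0.84 (adjusted p = 0.00688), short of 2-fold.

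Fcgr4, the gene for FcγRIV, a gamma chain-dependent receptor of macrophages and neutrophils that binds IgG2a, IgG2b and IgE, was well above background in the IgE lines alone. Its intensities were 14.1 and 13.7 in untransfected cells and 17.2 and 11.4 in the IgM line, none of them well above background. They were 106 and 90.8 in clone 18 and 148 and 121 in clone 41, all well above background. On the log2 scale these were -5.56, -5.43, -5.25 and -5.68 on the control arrays and -2.21, -2.44, -1.82 and -1.97 on the IgE arrays, so that the groups stood far apart.

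The control arrays give only a bound for the change in Fcgr4. In the main processing Fcgr4 was at least 6.56-fold higher in the IgE lines (limma adjusted p = 3.11e-05). The measured means were -2.11 ± 0.27 and -5.48 ± 0.18 (SD, n = 4 each). The bound, log2 2.71, sets the dim arrays at their lowest signal well above background, log2 -4.9 to -4.63. It is not a minimum under other processing: with normexp background correction the pooled difference was 1.46. Nor is that signal a detection limit for each probe. On the first clone 41 array the Fcrl5 variant 2 probe read -4.6, above that array's -4.63, and was not well above background. Other folds given as at least for single genes use the same kind of bound. For Fcgr4 in the main processing, clone 18 was at least 5.68-fold above untransfected cells and at least 5.63-fold above the IgM line (adjusted p = 0.000362 and 0.000282). Clone 41 was at least 7.65-fold and at least 7.59-fold above them (adjusted p = 0.000259 and 0.000175). Between the clones Fcgr4 differed by 0.43 ± 0.21 (clone 41 minus clone 18), which did not pass (adjusted p = 0.979). The calls against control lines held under each alternative in which the probe was tested, with pooled differences of 1.46 (normexp background correction) to 3.56 (quantile normalization) and an adjusted p of at most 0.000594.

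The rise in Fcgr3 and Fcgr4 stood beside mixed changes among macrophage and dendritic cell markers, of which Cd68 rose 3.2-fold (1.68 ± 0.16, adjusted p = 0.000976) and Emr1 fell (-4.41 ± 0.37, adjusted p = 0.000561), while Csf1r (0.3 ± 0.18), Itgam (0.1 ± 0.18), Mpeg1 (0.55 ± 0.41) and Marco (-0.08 ± 0.28) did not pass. The part of such cells in the Fcgr values was not tested.

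Fcrla, the gene for the intracellular Fc receptor-like protein, was higher in clone 18 and not in clone 41. Its levels were 2.16 and 2.85 in untransfected cells, 2.92 and 3.36 in the IgM line, 4.51 and 4.69 in clone 18, and 2.24 and 2.98 in clone 41. Both clone 18 arrays lay above all others, and clone 41 overlapped both control lines. In clone 18 Fcrla rose 4.29-fold over untransfected cells (2.1 ± 0.34, adjusted p = 0.0139) and 2.76-fold against the IgM line (1.47 ± 0.34, adjusted p = 0.042).

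In clone 41 Fcrla differed by 0.11 from untransfected cells (95% interval -0.71 to 0.92) and by -0.53 from the IgM line (-1.34 to 0.28), and neither passed (adjusted p = 0.889 and 0.415). The direct difference between the clones, -1.99 ± 0.34 (clone 41 minus clone 18, interval -2.81 to -1.18), did not pass over all probes (adjusted p = 0.14), a comparison in which 0.261% of probes were called. The pooled IgE difference was 0.79 ± 0.24 (adjusted p = 0.0689). The clone 18 call against untransfected cells was lost without the first or second clone 18 array (2.19 and 2.01, adjusted p = 0.0903 and 0.0964). Against the IgM line it was lost without either IgM array (1.24 and 1.69, adjusted p = 0.206 and 0.0846) or either clone 18 array (1.55 and 1.38, adjusted p = 0.166 and 0.195).

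Fcrl1, an activating Fc receptor-like gene of B cells, varied most within untransfected cells. It read 0.54 and -1.05 there, 0.1 and -0.3 in the IgM line, 0.15 and 0.41 in clone 18, and 0.3 and 0.5 in clone 41. The IgE arrays as a group overlapped the control arrays, although those of each clone lay above those of the IgM line, and the pooled difference of 0.52 ± 0.34 did not pass (adjusted p = 0.335). Both clones passed against untransfected cells without the first untransfected array (1.33 for clone 18 and 1.45 for clone 41, adjusted p = 0.0234 and 0.0213), and without the second array the differences were -0.26 and -0.14. The sign of the difference from untransfected cells thus hung on which of their arrays was used.

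The 2 probes of Fcrl5, a gene for a B cell surface protein with both activating and inhibitory motifs, gave different results. The variant 1 probe read 3.53 and 3.47 in untransfected cells, 3.43 and 3.33 in the IgM line, 3.96 and 3.58 in clone 18, and 3.76 and 3.43 in clone 41. These values overlapped between the groups (0.24 ± 0.14, adjusted p = 0.293; -0.09 with no scaling between arrays). The variant 2 probe read -2.19 and -2.85 in untransfected cells, -3.09 and -3 in the IgM line, -5.31 and -4.88 in clone 18, and -4.6 and -4.32 in clone 41. Its control arrays all lay above its IgE arrays, of which only the second clone 41 array was well above background.

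The variant 2 probe was called lower in the pooled comparison (-2 ± 0.19, adjusted p = 0.00102), but with 1 of the 4 IgE arrays well above background the size of this difference is not well measured. In clone 18 neither array was. There the bound used for Fcgr4, in the main processing, put it at least 4.67-fold below untransfected cells and at least 3.25-fold below the IgM line (adjusted p = 0.00256 and 0.00536). These bounds, log2 -2.22 and -1.7, are not minima under other processing. In the values of the authors' deposited table these clone 18 differences were -1.27 and -0.88. In clone 41, with 1 of 2 arrays well above background, it was called lower than in untransfected cells (adjusted p = 0.00985) and in the IgM line (adjusted p = 0.0254). The clone 41 calls were lost without its first array (-1.8 and -1.28, with adjusted p of 0.0789 and 0.154), and the call against the IgM line also without its second array (-1.55, adjusted p = 0.0852) or either IgM array (-1.46 and -1.37, adjusted p = 0.109 and 0.11). The clone 18 call against the IgM line was lost without the first clone 18 array (-1.84, adjusted p = 0.0511). Under normexp background correction the pooled difference was -0.57 (adjusted p = 0.0128), and in the values of the authors' deposited table -0.98 (adjusted p = 0.0123), both short of 2-fold. With normexp none of the 4 clone comparisons was called either (-0.73 and -0.67 against untransfected cells and -0.47 and -0.42 against the IgM line, for clone 18 and clone 41).

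Within each array, the variant 2 level less the variant 1 level of Fcrl5 ranged from -6.51 to -5.72 on the control arrays and from -9.27 to -7.75 on the IgE arrays. The probes' own brightness sets the size of this quantity, and with the variant 2 probe not well above background on 3 of the IgE arrays it is given without a test.

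**Figure D2:**
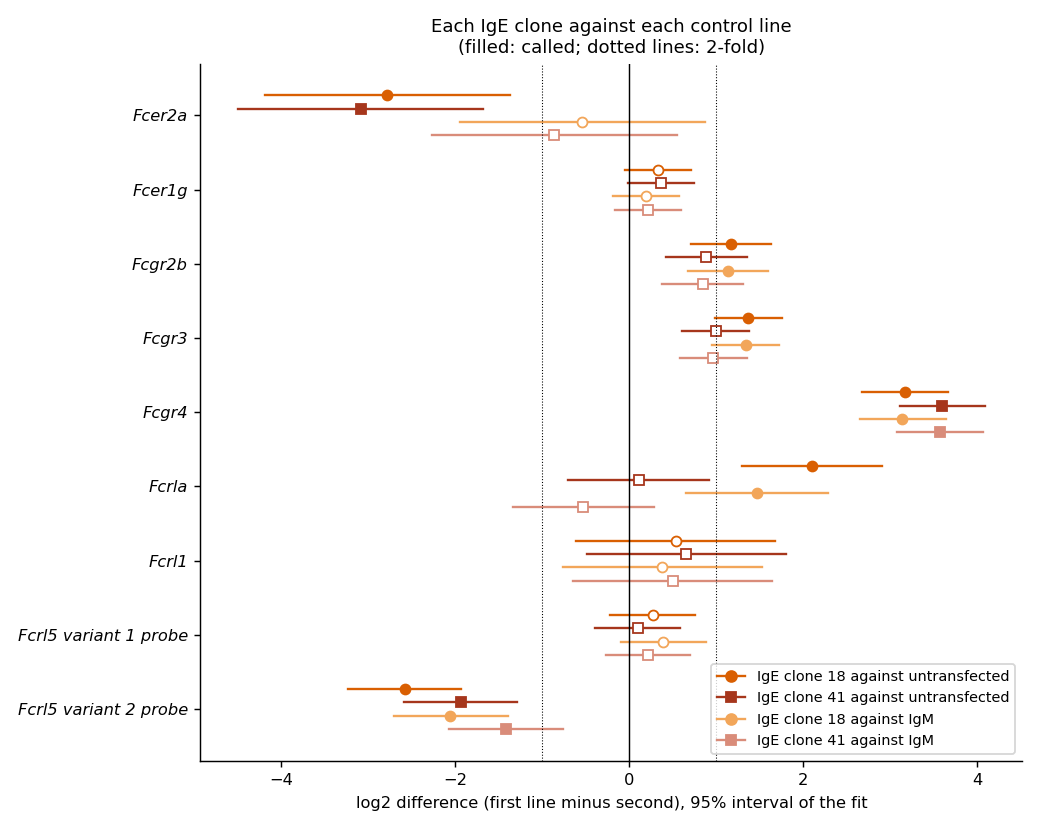
Log2 difference of each tested Fc receptor probe (rows) for each IgE clone against each control line, with the 95% interval of the fit; filled symbols were called at adjusted p under 0.05 and at least 2-fold, and dotted lines mark 2-fold. Fcgr4 and the variant 2 probe of Fcrl5 are filled in all 4 comparisons, Fcer2a only against untransfected cells and Fcrla only for clone 18.

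Read by line, clone 18 had 4 of 9 member probes higher and 2 lower than untransfected cells, where 7.46% of all probes were called, 3.5% as higher and 3.96% as lower. Against the IgM line it had 4 higher and 1 lower, where 8.84% of all probes were called, 3.33% as higher and 5.51% as lower. Clone 41 had 1 higher and 2 lower than untransfected cells, where 5.51% were called, 2.45% as higher and 3.06% as lower. Against the IgM line it had 1 higher and 1 lower, where 7.23% were called, 2.57% as higher and 4.66% as lower. These 4 comparisons share their control or clone arrays and are not independent of each other. All 4 counts include Fcgr4 and the Fcrl5 variant 2 probe, for which a difference was a condition of being tested. The clone 41 calls against the IgM line were these 2 probes alone. No member probe was called between the IgM line and untransfected cells, where 1.82% of all probes were called, or between the clones, where 0.261% were. At limma's unadjusted p under 0.05, 1 member probe differed between IgM and untransfected cells (Fcer2a) and 1 between the clones (Fcrla). The Fcgr probes differed by 0.03 to 0.04 between the control lines, with 95% intervals of -0.43 to 0.5 for Fcgr2b, -0.35 to 0.42 for Fcgr3 and -0.47 to 0.52 for Fcgr4.

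The genes Fcrla, Fcgr2b, Fcgr4 and Fcgr3 sit side by side on chromosome 1 in that order, and other genes of that neighbourhood rose in the IgE lines beside Fcgr2b, Fcgr4 and Fcgr3. Within 500 kb of these genes and Fcer1g (mm9 chr1:172348103-173659794), 43 probes of 32 other gene names were tested. Of these, 7 were higher, 0 lower and 40 above zero, with a median difference of 0.61 against 0.05 over all probes. Between Fcgr2b and Fcgr4, Gm10522 was higher by 2.13 ± 0.42, and beyond Fcgr3 the 2 probes of 1700009P17Rik were higher by 3.24 ± 0.27 and 4.77 ± 0.19. Dedd (1.03 ± 0.13), a death effector domain gene, and Arhgap30 (1.07 ± 0.11) were higher as well. Next to Fcer1g, Apoa2 differed by -0.01 ± 0.16.

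The part of the wider stretch in the Fcgr values was not tested. Around Fcer1a, which was not itself detected, 5 of 7 tested neighbours were higher. On chromosome 8 near Fcer2a 1 of 23 was called, and on chromosome 3 0 of 11 near Fcrl1, 0 of 20 near the Fcrl5 variant 1 probe, 1 of 22 near its variant 2 probe and 1 higher and 5 lower of 77 near Fcgr1.

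**Figure D3:**
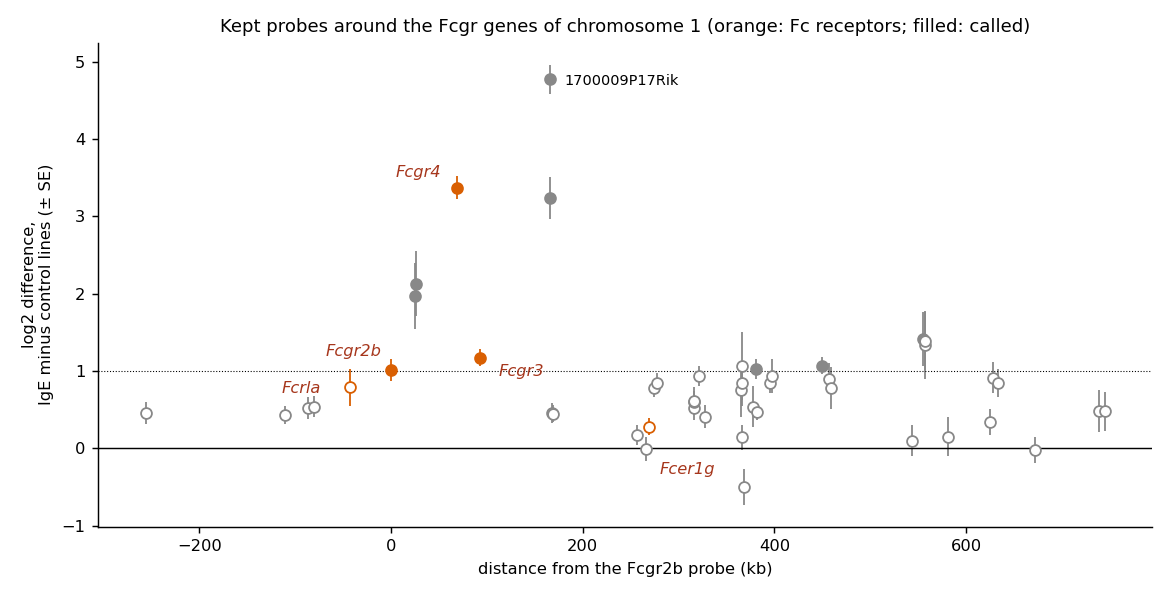
Log2 difference between IgE and control lines (y axis, ± SE of the fit) for each tested probe by its distance from the Fcgr2b probe in kb (x axis); Fc receptor genes are orange and filled points were called, with the dotted line at 2-fold. Fcgr4 at 3.37 and a 1700009P17Rik probe at 4.77 stand highest, and 40 of the 43 other probes lie above zero.

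The sequences before the transcription starts of the 3 raised IgG receptor genes are shown because they moved together. They are the 250 bases upstream of the start that RefSeq lists first on GRCm38.p6, 5′ to 3′ on the gene's strand, with any match to GAGGAA or its complement TTCCTC in capitals. GAGGAA is a core sequence bound by ETS factors of myeloid and B cells.
Fcgr2b: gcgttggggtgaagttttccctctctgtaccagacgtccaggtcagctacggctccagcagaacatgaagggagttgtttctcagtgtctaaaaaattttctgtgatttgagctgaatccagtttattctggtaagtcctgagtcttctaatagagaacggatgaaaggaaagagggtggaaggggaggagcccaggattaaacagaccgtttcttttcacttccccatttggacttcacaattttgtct
Fcgr3: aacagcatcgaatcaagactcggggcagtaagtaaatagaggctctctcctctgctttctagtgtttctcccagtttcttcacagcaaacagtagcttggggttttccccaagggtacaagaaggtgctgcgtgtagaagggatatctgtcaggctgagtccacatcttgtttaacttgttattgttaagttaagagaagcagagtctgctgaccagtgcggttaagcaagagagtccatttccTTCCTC
Fcgr4: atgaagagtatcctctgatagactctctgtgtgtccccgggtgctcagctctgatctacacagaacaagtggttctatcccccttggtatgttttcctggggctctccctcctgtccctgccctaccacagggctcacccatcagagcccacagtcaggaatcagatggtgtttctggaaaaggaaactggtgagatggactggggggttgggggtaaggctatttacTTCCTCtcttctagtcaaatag
They lie at chr1:170976072-170976321 (Fcgr2b, minus strand), chr1:171059404-171059653 (Fcgr3, minus strand) and chr1:171018676-171018925 (Fcgr4, plus strand) of that build. Searched on both strands, GAGGAA was found in the windows of 6 of the 10 member genes (Fcgr3, Fcgr4, Fcer1a, Fcgr1, Fcrla and Fcrl1), and in 23.3% of the 32851 windows of all genes. In Fcgr4 it stood at bases -22 to -17 and in Fcgr3 at -6 to -1, counted from the start, and the Fcgr2b window held none. Some member genes have more than 1 window, and a member gene was counted if any of its windows matched. The 23.3% is a share of windows and not of genes, so the shares differ in unit. These matches describe letters only.

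The genes whose levels over the 8 arrays were most like those of the called members were found among 24838 probes well above background on every array. For Fcgr2b they were Pfdn2 (Pearson r = 0.996), a probe for a lincRNA of chromosome 1 (0.992) and Fcgr3 (0.991). For Fcgr3 they were Cacna1h (0.995), 1110037F02Rik (0.994) and Pfdn2 (0.992). For Fcer2a they were Tap1 (0.976), 1700052N19Rik (0.974) and Tnfsf9 (0.969). With 2 arrays in each of 4 lines such values are common: 3.64% of the probes reached 0.9 with Fcgr2b, 4.73% with Fcgr3 and 0.407% with Fcer2a.

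Among genes that act with these receptors, 11 of the 76 tested in 5 lists were called (14.5%), 1 higher and 10 lower in the IgE lines. Where a gene had several probes, the brightest stood for it, and by that count 8.97% of all 19973 genes were called, 3.39% as higher and 5.58% as lower, with a median of 0.04. Of 12 listed names of other Fc receptors and Fc-binding proteins, 11 were on the array and 4 were tested. Fcamr, a receptor for IgA and IgM, was at least 1.53-fold lower (adjusted p = 0.0256, not well above background in the IgE lines, and called in 1 of the 4 comparisons of a clone with a control line). Faim3, the IgM receptor gene now called Fcmr, differed by 0.55 (adjusted p = 0.0948). Of those 4 comparisons Faim3 was called higher only in clone 41 against untransfected cells (1.47, adjusted p = 0.0271). Ms4a2, the FcεRI beta chain, was above background on 1 array and was not tested.

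Of 20 ITAM adaptors and receptors that pair with the gamma chain 11 were tested, with 1 higher, 0 lower and a median of 0.26. Tyrobp (DAP12), an ITAM adaptor of myeloid and NK cells, rose 2.6-fold (1.38 ± 0.27, adjusted p = 0.0159). Its change was against the IgM line (2.13 for clone 18, 2.27 for the other clone, with adjusted p of 0.0164 and 0.0149), while against untransfected cells it differed by 0.48 and 0.63 and did not pass (adjusted p = 0.449 and 0.382). The ITAM chains of the B cell receptor, Cd79a (-0.84 ± 0.14, adjusted p = 0.00951) and Cd79b (0.26 ± 0.14, adjusted p = 0.245), were not called in the pooled comparison. In clone 18 Cd79a was called lower than in untransfected cells (-1.12, adjusted p = 0.0199) and in the IgM line (-1.19, adjusted p = 0.0137), and in clone 41 it was not (-0.49 and -0.56, adjusted p = 0.215 and 0.154).

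Of 30 genes of activating Fc receptor signalling 26 were tested, with 0 higher, 2 lower and a median of -0.04. The Src-family kinase gene Fyn fell 4.92-fold (-2.3 ± 0.24, adjusted p = 0.00133), in clone 41 not against untransfected cells (-1.16, adjusted p = 0.104). Lyn, the Src-family kinase that phosphorylates these receptors, differed by 0.28 ± 0.18, Syk by -0.09 ± 0.16, Btk by 0.47 ± 0.2 and Plcg2 by 0.16 ± 0.11, and none of these passed.

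Of 17 genes of inhibitory Fc receptor signalling 16 were tested, with 0 higher, 3 lower and a median of -0.15. The adaptor gene Dok3 fell 2.35-fold (-1.24 ± 0.26, adjusted p = 0.0211) and the ubiquitin ligase gene Cbl 2.03-fold (-1.02 ± 0.16, adjusted p = 0.00671). Both were called in each clone against the IgM line and in neither against untransfected cells, from which Dok3 differed by -0.62 and -0.6 (adjusted p = 0.327 and 0.39) and Cbl by -0.97 and -0.83 (adjusted p = 0.0437 and 0.0842). Pag1, a membrane adaptor that binds the kinase Csk, was at least 1.06-fold lower (adjusted p = 0.012), with calls for clone 18 and not for clone 41. The phosphatase genes that FcγRIIB and related ITIM receptors use, Inpp5d (SHIP, -0.23 ± 0.3, adjusted p = 0.633) and Ptpn6 (SHP-1, 0.36 ± 0.31, adjusted p = 0.46), did not pass.

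Of 24 partners, sheddases and regulators of CD23 19 were tested, with 0 higher, 4 lower and a median of -0.01. The complement receptor gene Cr2 fell 3.18-fold (-1.67 ± 0.22, adjusted p = 0.00376) and was lower in both clones against each control line (differences of -1.86 to -1.47, adjusted p up to 0.0426). The integrin gene Itgb3 fell 4.26-fold (adjusted p = 7e-04), in clone 41 not against untransfected cells (-0.72, adjusted p = 0.175), and Traf1, an adaptor of TNF receptors, 2.32-fold (adjusted p = 0.0368), with a call for clone 18 against untransfected cells and for no other of the 4 pairs. Il4, the cytokine that induces CD23, was at least 1.79-fold lower, and was above background on 2 of the 4 control arrays and on none of the IgE arrays. The difference was from untransfected cells, below which the IgM line was called too (-3.8, adjusted p = 0.0221), and against the IgM line neither clone passed (-0.52 and 0.66, adjusted p = 0.597 and 0.526). Adam10, the protease that sheds CD23, differed by 0.72 ± 0.12 (adjusted p = 0.00874), short of 2-fold. Of the 4 pairs Adam10 was called higher only in clone 41 against untransfected cells (1.04, adjusted p = 0.0164). Clone 18 was short of 2-fold there (0.96, adjusted p = 0.018). Stat6 (0.27 ± 0.21), Il4ra (0.35 ± 0.22), Pax5 (0.64 ± 0.21) and Notch2 (-0.38 ± 0.13) did not pass.

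**Figure D4:**
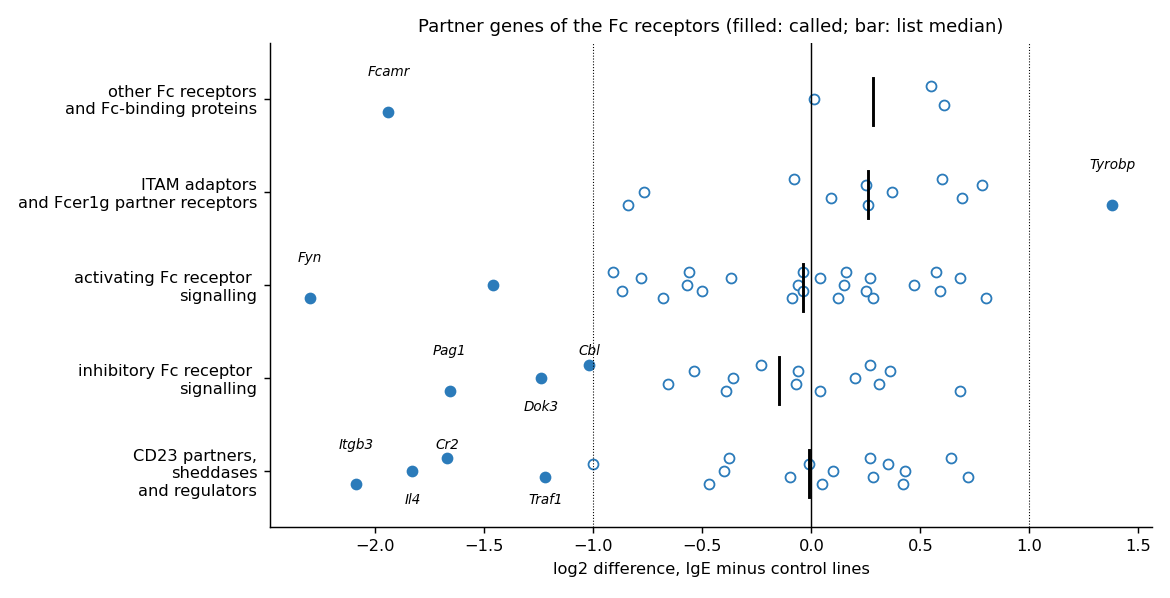
Log2 difference between IgE and control lines (x axis) for each tested gene of 5 lists of Fc receptor partners (rows); filled points were called, with names for those given in the text, the bar is the list's median and dotted lines mark 2-fold. Tyrobp at 1.38 is the called gene on the right, and the others that are filled, from Fyn at -2.3 to Cbl at -1.02, lie on the left.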

How the data were processed

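The 8 arrays are single-colour (Cy3) Agilent arrays of total RNA from 4 A20 lines, 2 arrays a line. The authors' scanner software, Agilent Feature Extraction 10.7.3.1 per the file headers, gave each spot a processed intensity after background subtraction and detrending, and probe positions are on mm9. The authors also deposited a table of log2 values whose normalization is not given in the sources used here; its columns follow the scanner values of their own arrays (Pearson r of 0.996 to 0.998), so scale and direction are known and only the centring, at a median of 6 to 6.01 per array, is not explained.

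From the intensities, log2 values less each array's 75th percentile were computed. Control spots and those the software marks as outliers (non-uniform, or off their population) were not used, and a probe's repeated spots were averaged. Of 55681 non-control probes, 29140 were kept, being well above background on both arrays of some line. In limma 3.58.1 (R 4.3.3), each line had its own mean in 1 linear model of all kept probes, with 4 residual and 2.74 prior degrees of freedom, and 7 comparisons were drawn from it. P-values were adjusted by Benjamini-Hochberg over all kept probes within each comparison. The number of arrays limits the precision. The code was tested on simulated data. Figures were drawn with Python 3.11.15, and promoter windows come from RefSeq (GRCm38.p6). All 11 member probes matched a RefSeq accession and kept their symbols.

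The members, the lists and the tests were chosen with earlier results of these data known. Every member probe is described, up to 4 called genes per list and direction are named by size of change, and partners named beside them without a call were chosen for their known roles. Some called genes of the lists are counted but not reported by name here. Same-numbered arrays of different lines were not treated as pairs. Alternatives covered the background correction, scaling, filter, flagged spots, prior, deposited table, grouping, replicate block, call rule and each array left out. The fits with no scaling and with scaling to the median of detected probes were added after the data had been seen.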

Additional observations from a re-analysis of the deposited data

How the results depend on the processing

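The calls for Fcgr4 against control lines held under every alternative that tested its probe, with a pooled difference of 1.46 to 3.56. Most of these kept the filter that the probe passed only through the IgE lines, so a difference was a condition of the test. The pooled call for Fcgr3 was lost only with no scaling, that for Fcgr2b in 8 of 22 alternatives, each time by falling short of 2-fold, that for Fcer2a in 9 of 22, and that for the Fcrl5 variant 2 probe in 2 of 20. For Fcer2a the adjusted p was 0.103 in a fit of 2 groups without the lines and 0.112 when lines entered it as a random block; its pooled p was 0.0961 with no filter. The cause of these losses was not tested. Of 9 tested member probes, 5 were called in the pooled comparison, 3 under normexp, 3 with no scaling, 3 when probes had to be well above background on all 8 arrays (which leaves out Fcgr4 and the Fcrl5 variant 2 probe) and 2 in the deposited table. For clone 18, 6 were called against untransfected cells and 3 with no filter, and 5 against the IgM line and 3 with the all-array filter or the deposited table. For clone 41, 3 were called against untransfected cells, 1 with the all-array filter and 5 by adjusted p alone. Against the IgM line clone 41 had 2, falling to 1 under quantile normalization, normexp, no filter, the deposited table or 1 probe per gene name and 0 with the all-array filter, and rising to 4 by adjusted p alone.

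Leaving out each array in turn gave 3 to 5 calls in the pooled comparison. It gave 3 to 6 and 2 to 5 for clone 18 against untransfected and IgM cells, and 1 to 5 and 1 to 2 for clone 41. With the replicate number as a block, 1 probe was called between the IgM line and untransfected cells (Fcer2a, adjusted p = 0.0163) and 1 between the clones (Fcrla, adjusted p = 0.0341), where the fit without the block called 0. In the labels these samples share only a number. Each line's 2 arrays lay in the 2 rows of the slide, and whether the number follows the row was not tested. Deviations of same-numbered arrays of different lines correlated at -0.07 to 0.35 over the 6 pairs of lines. Not every array thus deviated most like those of its number. Over all kept probes, 2620 were called in the pooled comparison, against 1344 under normexp, 1516 with the all-array filter, 1527 in the deposited table and 4948 by adjusted p alone.

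No called difference changed sign. Differences that were not called did so as follows. With no scaling Fcer1g came to -0.06 in the pooled comparison, -0.02 and -0.14 for clone 18 against untransfected and IgM cells, and -0.09 for clone 41 against the IgM line. The Fcrl5 variant 1 probe then came to -0.09 pooled, -0.08 for clone 18 and -0.23 for clone 41 against untransfected cells, and -0.1 for clone 41 against the IgM line, and Fcrla to -0.22 for clone 41 against untransfected cells. Between the IgM line and untransfected cells Fcer1g was -0.07 under quantile normalization and -0.03 in the deposited table, Fcgr4 -0.7 and -0.17, Fcgr3 -0.04 under normexp, and the Fcrl5 variant 1 probe 0.03 in the deposited table. Leaving out 1 array at a time, the same comparison ranged from -0.19 to 0.24 for Fcgr4, -0.03 to 0.1 for Fcgr3, -0.11 to 0.18 for Fcgr2b and -0.64 to 0.95 for Fcrl1. Against untransfected cells Fcrl1 ranged from -0.26 to 1.33 in clone 18 and -0.14 to 1.45 in clone 41, where Fcrla ranged from -0.27 to 0.48 and the Fcrl5 variant 1 probe from -0.07 to 0.26. Between the clones the ranges were -0.77 to 0.14 for Fcer2a, -0.01 to 0.25 for Fcrl1, -0.36 to 0.01 for the Fcrl5 variant 1 probe and -0.05 to 0.11 for Fcer1g.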
